A study of Mus musculus with 22 samples.

Results

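The integrin subunits of the vessel wall were taken here as 8 genes: Itga1, Itga5, Itga6, Itga8, Itgav, Itgb1, Itgb3 and Itgb5. Members were found through the array's annotation, and where a gene had several probe sets, that with the highest average across the 22 arrays stood for it. Of the 8 genes, 6 had named probe sets (14 probe sets in all), out of 11807 genes named on the array, and Itga1 and Itga5 were not analysed here. The levels were deposited log2 signals from Affymetrix 3-prime expression arrays, 1 array per sample, of RNA scraped from the inner surface of opened mouse aortas and then amplified.

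All mice were C57BL/6 on chow. Aortas of wild-type mice were kept for 4 h in DMEM with 1% FBS that held bacterial lipopolysaccharide (LPS) at 4 ng/mL, oxLDL, which is oxidized low-density lipoprotein, or oxidized palmitoyl-arachidonoyl-phosphocholine (oxPAPC), the last pair at 50 µg/mL each, or no addition (medium), with 3 arrays in each of these 4 groups. Intima was also taken fresh from 4-week-old ApoE -/- mice (n = 4), labelled hyperlipidemic before lesions form, and from 4-week-old wild-type mice (n = 6). In ApoE -/- mice the loss of the gene and the raised blood lipids go together. The labels do not say whether animals were pooled for an array, nor the age of the mice whose aortas were incubated, so p-values reflect array-to-array spread, which may be technical.

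Integrins are receptors made of 1 alpha and 1 beta subunit that tie the cytoskeleton to the matrix around the cell and signal in both directions. Itgav encodes the alpha-v subunit, which pairs with the subunits encoded by Itgb3 and Itgb5 to bind vitronectin and other ligands, Itgb1 encodes the common partner of many alpha subunits, Itga8 encodes a subunit typical of vascular smooth muscle, and Itga6 encodes a laminin-binding subunit. In endothelium and smooth muscle they govern adhesion, spreading, migration and the release of latent TGF-beta.

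Fresh ApoE -/- arrays had Apoe signals of 3.04 to 3.23 log2, against 3.78 to 4.35 in fresh wild-type arrays, and all 10 stayed under the 40th percentile of their arrays. Arrays of 1 group correlated at r = 0.9771 to 0.9907 over all genes, the lowest pair being in the oxPAPC group, and fresh with incubated arrays at 0.9111 to 0.9378. Of 18 endothelial markers, 16 were above the 40th percentile on all 22 arrays, and Robo4 averaged below it in each of the 6 groups. Smooth muscle markers were present too, 11 of 14 above that percentile on all arrays, although the samples are labelled as endothelial cells. The mean of the 14 ranged from 8.20 to 8.45 log2 over the LPS arrays, 7.83 to 8.35 with oxLDL, 8.34 to 8.75 with oxPAPC, 7.13 to 8.09 in medium, 9.04 to 9.21 in fresh ApoE -/- and 8.33 to 9.18 in fresh wild type. In such bulk samples, fewer cells of a type and less RNA per cell cannot be told apart.

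The 6 measured subunits lay above the 40th percentile on each of the 22 arrays and entered every fit. Itga6 came closest to that line, at 0.03 and 0.12 log2 above it on fresh wild-type replicates 14 and 12. Itgav spanned 2.55 on the log2 scale, Itgb3 2.47, Itgb5 2.11, Itga6 1.79, Itga8 1.60 and Itgb1 0.79. Signals of different probe sets are not comparable in level, so each subunit was compared only with itself.

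**Figure D1:**
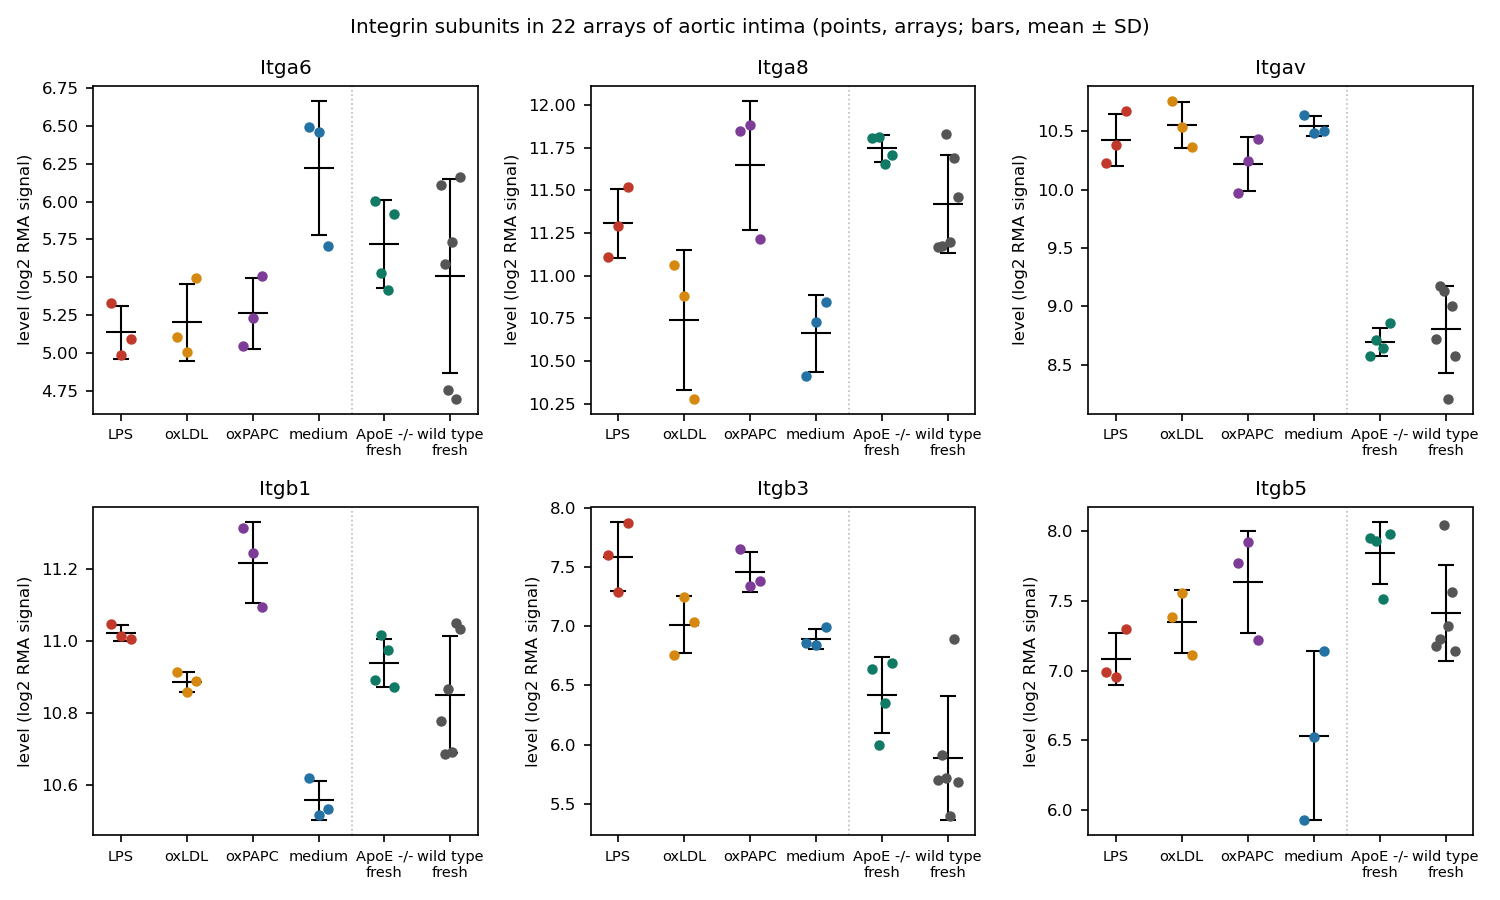
Log2 signal of the 6 subunits on each of the 22 arrays (vertical axes), by group (horizontal axes); points are arrays and bars the mean ± SD. Itgav lies between 9.97 and 10.76 on all incubated arrays and between 8.21 and 9.17 on all fresh ones, and Itgb1 is lowest in medium.

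Incubation in medium, compared with fresh wild-type intima, separated the subunits into a higher and a lower pair. Itgav and Itgb3 were higher in medium, by 3.34-fold and 2.01-fold, and Itga8 and Itgb5 were lower, by 1.69-fold and 1.84-fold. That is 4 of 6 members past an adjusted p of 0.05 (limma), where 58.7% of all genes tested passed, with 24.3% higher and 34.4% lower, so the count is near the background. Aligning the arrays by cyclic loess gave a median of all genes of 0.01, in place of -0.13 as deposited, and 2218 higher and 2015 lower calls, in place of 1824 and 2586. The 4 subunits had the same directions and calls under it, and Itga6 became the fifth called (0.91, adjusted p = 0.0472).

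Itgav read 10.64, 10.48 and 10.50 in the medium arrays, against a lowest value of 8.21, a median of 8.86 and a highest of 9.17 in the 6 fresh wild-type arrays. The groups did not overlap. The difference was 1.74 ± 0.20 (SE, log2; adjusted p = 4.13e-05 by limma), the largest among the subunits, and it passed in all 9 fits that left out 1 array. The other 2 Itgav probe sets rose by 2.02 and 2.23, with adjusted p of 3.82e-06 and 8.8e-06.

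Itgb3, the beta partner of alpha-v also found on platelets, read 6.85, 6.84 and 6.99 in the medium arrays, against 5.40, 5.71 and 6.89 as lowest, median and highest in fresh wild type. Only wild-type replicate 14, at 6.89, reached the range of the medium arrays. The difference was 1.01 ± 0.27 (SE, log2; adjusted p = 0.00786). Of 4 tested platelet and red cell markers 0 were higher and 2 lower, where 24.3% and 34.4% of all genes were. The 2 lower were the red cell genes Alas2 and Hba-a1, by 1.66 and 1.57 log2. The platelet genes Gp1bb, Gp5, Gp9 and Treml1 averaged below the 40th percentile in both groups. The platelet genes Ppbp and Pf4 averaged above it in both groups and were not called. Ppbp averaged 6.48 in fresh wild type and Pf4 6.11 in medium, so platelet transcripts were detected. Whether platelets had a part in the Itgb3 difference was not tested.

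Itga8 read 10.41, 10.73 and 10.85 in the medium arrays, against 11.17, 11.33 and 11.83 as lowest, median and highest in fresh wild type, with no overlap. It fell by 0.76 ± 0.18 (SE, log2; adjusted p = 0.004). Itgb5, the other beta partner of alpha-v, read 5.93, 6.53 and 7.14 in medium, against 7.14, 7.27 and 8.04 in fresh wild type, so the groups touched at 1 array. It fell by 0.88 ± 0.26 (adjusted p = 0.0149), and without medium replicate 9 by 0.58 (adjusted p = 0.0872). Smooth muscle markers were lower in the same arrays, 12 of 14 of them, where 34.4% of all genes were. The median difference of the markers was -1.10 against -0.13 for all genes.

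The 300 bases around 1 transcript start each of Itgav, the subunit that moved most, and of Itga8 and Itgb5, which moved together, are shown to set their sequence beside these differences. They run 5′ to 3′ on the coding strand, from 250 bases before to 50 after a transcript start (RefSeq, GRCm38.p6). That start is the first base of the annotated gene for Itgb5, but lies 41 bases inside the gene for Itga8 and 2094 bases inside it for Itgav. Capitals mark GC boxes, GGGCGG or its reverse complement CCGCCC. The coordinates are chr2:83724147-83724446 (plus strand) for Itgav, chr2:12301895-12302194 (minus strand) for Itga8 and chr16:33829415-33829714 (plus strand) for Itgb5.
Itgav: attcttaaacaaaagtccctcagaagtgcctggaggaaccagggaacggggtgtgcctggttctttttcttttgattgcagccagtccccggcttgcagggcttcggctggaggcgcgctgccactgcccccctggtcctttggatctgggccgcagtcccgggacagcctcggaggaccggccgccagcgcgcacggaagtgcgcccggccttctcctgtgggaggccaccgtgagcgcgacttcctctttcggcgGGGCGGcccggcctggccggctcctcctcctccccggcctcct
Itga8: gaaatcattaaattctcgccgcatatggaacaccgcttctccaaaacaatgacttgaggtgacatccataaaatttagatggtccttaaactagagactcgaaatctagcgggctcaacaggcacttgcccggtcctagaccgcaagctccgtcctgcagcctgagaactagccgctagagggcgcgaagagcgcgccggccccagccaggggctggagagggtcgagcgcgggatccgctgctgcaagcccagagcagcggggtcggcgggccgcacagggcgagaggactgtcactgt
Itgb5: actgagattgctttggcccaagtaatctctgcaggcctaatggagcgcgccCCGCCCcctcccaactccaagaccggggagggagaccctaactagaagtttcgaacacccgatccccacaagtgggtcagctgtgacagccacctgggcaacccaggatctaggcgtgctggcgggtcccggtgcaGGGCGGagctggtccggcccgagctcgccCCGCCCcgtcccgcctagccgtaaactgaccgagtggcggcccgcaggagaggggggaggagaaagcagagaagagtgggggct
Itgav held 1 GC box, Itgb5 3 and Itga8 0, and 35.7% of 32851 promoters of the same length held at least 1. GC content was 67.3%, 59% and 65.7% for Itgav, Itga8 and Itgb5, against a median of 52.7% over all promoters. The AP-1 motif TGANTCA, searched on both strands and present in 7.8% of promoters, and the CArG box of serum response factor, in 1.6%, matched none of the 3 windows.

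With the smooth muscle mean of each array as a covariate, Itgav and Itgb3 were called higher in medium (adjusted p = 0.00224 and 0.0421 by limma). The difference of Itga8 was -0.09 (adjusted p = 0.803) and that of Itgb5 0.30 (adjusted p = 0.381). The covariate did not overlap between the groups, at 7.13 to 8.09 in medium and 8.33 to 9.18 in fresh wild type. Marker level and group therefore cannot be told apart here. The covariate widened the standard errors 1.88-fold in the median over genes. Macrophage and leukocyte markers were also higher in medium, 9 of 10 tested, where 24.3% of all genes were higher. Their mean was 5.98 to 6.15 in the medium arrays, against 4.51 to 5.16 in fresh wild type, where Cd68, C1qa, C1qb, Adgre1, Cd14, Laptm5 and Mrc1 averaged below the 40th percentile. Markers that were low in fresh intima could pass the level filter through the medium arrays alone, which favours calls as higher. The part of this list in the subunit differences was not tested.

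Itgb1 and Itga6 did not pass as deposited. Itgb1 read 10.62, 10.52 and 10.54 in medium, against 10.69, 10.82 and 11.05 as lowest, median and highest in fresh wild type, a difference of -0.29 ± 0.12 (SE, log2; adjusted p = 0.0539) between groups that did not overlap. Its call depended on the fit: adjusted p was 0.041 without wild-type replicate 8, 0.0473 without wild-type replicate 13 and 0.0145 with all 22 arrays in 1 fit. Itga6 read 6.49, 6.46 and 5.71 in medium, against 4.70, 5.66 and 6.16 in fresh wild type, a difference of 0.71 ± 0.35 (adjusted p = 0.102) with overlapping groups. Besides cyclic loess, the fit of all 22 arrays also called it higher (adjusted p = 0.0358), and with the smooth muscle covariate the difference was -0.72 (adjusted p = 0.213).

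The 3 stimuli were each compared with medium in 1 fit of the 12 incubated arrays, and the comparisons share the medium arrays with one another and with the preceding one. With oxPAPC, Itgb1, Itga8, Itgb3 and Itgb5 were higher and Itga6 was lower than in medium. With LPS, Itgb1 and Itgb3 were higher and Itga6 was lower, and with oxLDL Itga6 alone passed, lower. These are 5 of 6 members where 21.3% of genes passed with oxPAPC, 3 where 9.05% passed with LPS, and 1 where 2.81% passed with oxLDL. Of all genes 8.34% passed as higher and 12.9% as lower with oxPAPC, 3.36% and 5.68% with LPS, and 0.742% and 2.07% with oxLDL. With median centring, oxLDL calls split 92 higher and 135 lower instead of 56 and 156.

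Itgb1 read 11.31, 11.24 and 11.09 with oxPAPC, 11.05, 11.01 and 11.01 with LPS, and 10.91, 10.86 and 10.89 with oxLDL, against 10.62, 10.52 and 10.54 in medium. Each stimulated array lay above each medium array. The difference was 0.66 ± 0.11 (SE, log2; 1.58-fold; adjusted p = 0.00385) with oxPAPC, and this call held in all 6 fits that left out 1 array. With LPS it was 0.46 ± 0.11 (adjusted p = 0.0308), and adjusted p was between 0.0637 and 0.0824 without any 1 of the 6 arrays. With oxLDL it was 0.33 ± 0.11 (adjusted p = 0.131).

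Itga6 read 5.33, 4.99 and 5.10 with LPS, 5.10, 5.01 and 5.49 with oxLDL, and 5.05, 5.23 and 5.51 with oxPAPC, against 6.49, 6.46 and 5.71 in medium. All 9 stimulated arrays were below the 3 medium arrays. The signal averaged 0.50, 0.58 and 0.64 log2 above the 40th percentile with LPS, oxLDL and oxPAPC, against 1.63 in medium. The stimulated levels were thus near the level filter, which limits what the size of the falls can mean. Itga6 fell by 1.08 ± 0.22 with LPS (SE, log2; adjusted p = 0.0166), by 1.02 ± 0.22 with oxLDL (adjusted p = 0.0345) and by 0.96 ± 0.22 with oxPAPC (adjusted p = 0.0132). Medium replicate 11 was the nearest to the stimulated arrays. Without medium replicate 9 the adjusted p was 0.0616, 0.131 and 0.0565 for LPS, oxLDL and oxPAPC. The LPS call was also lost without medium replicate 10 (0.0516) or LPS replicate 4 (0.0566), and the oxPAPC call without oxPAPC replicate 11 (0.0556). For oxLDL the call held only without medium replicate 11, the highest p being the 0.131 above.

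The second Itga6 probe set passed in no comparison. Its differences from medium were -0.68 with LPS, -0.49 with oxLDL and -0.13 with oxPAPC (adjusted p = 0.197, 0.389 and 0.808), and it lay above the 40th percentile on 1 LPS, 2 oxLDL, 2 oxPAPC and 2 medium arrays.

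Itga8 read 11.85, 11.88 and 11.21 with oxPAPC, 11.11, 11.29 and 11.52 with LPS, and 11.06, 10.88 and 10.28 with oxLDL, against 10.41, 10.73 and 10.85 in medium. The oxPAPC and LPS arrays lay above the medium arrays and the oxLDL arrays overlapped them. The difference with oxPAPC was 0.98 ± 0.24 (SE, log2; adjusted p = 0.0148). It missed the threshold without medium replicate 9 (adjusted p = 0.0614), oxPAPC replicate 11 (0.0601) or oxPAPC replicate 12 (0.064). With LPS it was 0.64 ± 0.24 (adjusted p = 0.104), and with oxLDL 0.08 ± 0.24 (adjusted p = 0.876).

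Itgb5 read 7.77, 7.92 and 7.22 with oxPAPC, 6.99, 6.96 and 7.30 with LPS, and 7.39, 7.56 and 7.11 with oxLDL, against 5.93, 6.53 and 7.14 in medium. The medium arrays were the most spread of any group, and only the oxPAPC arrays lay wholly above them. The difference was 1.10 ± 0.28 with oxPAPC (SE, log2; adjusted p = 0.0179), 0.82 ± 0.28 with oxLDL (adjusted p = 0.12) and 0.55 ± 0.28 with LPS (adjusted p = 0.219). The oxPAPC call was lost without medium replicate 9 (0.0657), oxPAPC replicate 11 (0.0639) or oxPAPC replicate 12 (0.0739). The second Itgb5 probe set differed by 0.97 with oxLDL (adjusted p = 0.0188) and by 0.62 with oxPAPC (adjusted p = 0.0417).

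Itgb3 read 7.60, 7.29 and 7.87 with LPS, 7.65, 7.33 and 7.38 with oxPAPC, and 6.76, 7.25 and 7.03 with oxLDL, against 6.85, 6.84 and 6.99 in medium. The LPS and oxPAPC arrays were all above medium. The difference was 0.69 ± 0.18 with LPS (SE, log2; adjusted p = 0.0343), 0.56 ± 0.18 with oxPAPC (adjusted p = 0.0423) and 0.12 ± 0.18 with oxLDL (adjusted p = 0.726). Each of the first 2 calls held in 1 of 6 fits that left out an array, with adjusted p up to 0.101 and 0.149. Both were lost with all 22 arrays in 1 fit (adjusted p = 0.0906 with LPS and 0.133 with oxPAPC).

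Itgav did not pass with any of the 3 stimuli. It read 10.23, 10.38 and 10.67 with LPS, 10.76, 10.53 and 10.37 with oxLDL, and 9.97, 10.25 and 10.43 with oxPAPC, against 10.64, 10.48 and 10.50 in medium. The differences and their 95% intervals were -0.11 (-0.48 to 0.25) with LPS, 0.01 (-0.35 to 0.38) with oxLDL and -0.32 (-0.69 to 0.04) with oxPAPC, none of which passed. Probe set 1421198_at of the same gene was lower with oxLDL by 1.01 ± 0.15 (adjusted p = 0.00677), at 8.36 ± 0.20 with oxLDL against 9.37 ± 0.18 in medium (mean ± SD, n = 3 each), so the Itgav probe sets disagreed for this stimulus. The third probe set differed by -0.12 with oxLDL (adjusted p = 0.688).

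**Figure D2:**
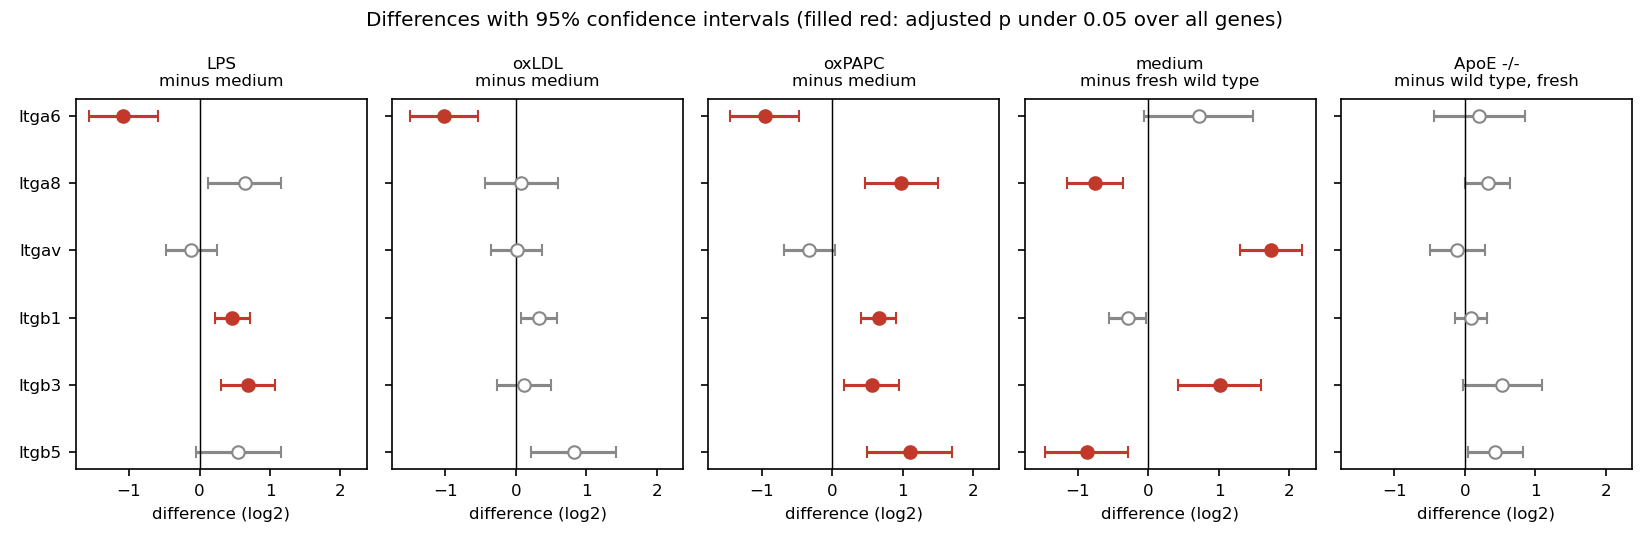
Difference of each subunit (horizontal axis, log2) in 5 comparisons, with 95% confidence intervals; filled red points passed an adjusted p of 0.05 over all genes. Itga6 is below 0 with each of the 3 stimuli, Itgav is far from 0 only for medium minus fresh wild type, and no point is filled for ApoE -/- minus wild type.

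Marker transcripts of other cell types differed in the same comparisons. Smooth muscle markers were higher than in medium for 9 of 14 with oxPAPC, 3 with LPS and 0 with oxLDL, against 8.34%, 3.36% and 0.742% of all genes. Des and Pln averaged below the 40th percentile in medium and in no other group. Endothelial markers were lower for 10 of 17 tested with oxPAPC, 4 with LPS and 1 with oxLDL, against 12.9%, 5.68% and 2.07% of all genes. The endothelial mean ranged from 7.43 to 7.97 with oxPAPC, 7.80 to 8.18 with LPS and 8.06 to 8.33 with oxLDL, against 8.32 to 8.48 in medium. With the smooth muscle mean as a covariate, 0 of 6 subunits passed in any of the 3 comparisons. The differences of Itgb1 were then 0.65 with oxPAPC and 0.46 with LPS (adjusted p = 0.183 and 0.166), close to those without it. Those of Itgb3 were 0.54 with LPS and 0.34 with oxPAPC (adjusted p = 0.262 and 0.632). For Itga6 they were -0.49, -0.52 and -0.12 with LPS, oxLDL and oxPAPC, for Itga8 with oxPAPC 0.16 and for Itgb5 with oxPAPC -0.04. The covariate was 8.20 to 8.45 with LPS and 8.34 to 8.75 with oxPAPC, against 7.13 to 8.09 in medium. As neither range overlapped medium, marker level and group cannot be told apart in those comparisons. The covariate widened the standard errors 1.42-fold with LPS, 1.31-fold with oxLDL and 1.73-fold with oxPAPC in the median over genes. For oxPAPC it left 0 of 7550 genes called, with 1112 at an unadjusted p under 0.05 (limma).

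Set directly against one another, the stimuli differed in 1 subunit by the probe sets used. Itga8 was lower with oxLDL than with oxPAPC by 0.91 ± 0.24 (SE, log2; adjusted p = 0.0284 by limma), where 12.4% of genes passed, 7.8% higher and 4.57% lower. Its oxLDL arrays, at 10.28 to 11.06, did not reach the oxPAPC arrays, at 11.21 to 11.88. The call was lost without oxLDL replicate 16 (adjusted p = 0.107), oxLDL replicate 15 (0.05), oxPAPC replicate 11 (0.0992) or oxPAPC replicate 12 (0.113). Of the other probe sets, 1421198_at of Itgav was called in 2 pairs, higher with LPS than with oxLDL by 0.75 (adjusted p = 0.0173) and lower with oxLDL than with oxPAPC by 0.60 (adjusted p = 0.0215), while the Itgav probe set used differed by -0.13 and 0.33 (adjusted p = 0.726 and 0.211 in the fit over 11532 probe sets). Ldb3, a muscle Z-disc gene, was the only 1 of 14 smooth muscle markers called in this pair, also lower.

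LPS against oxLDL gave 0 of 6 subunits where 5.07% of genes passed (2.21% higher, 2.86% lower), and LPS against oxPAPC 0 of 6 where 8.65% passed (4.69% higher, 3.96% lower). The unadjusted counts in these pairs were 1625 and 1906 of 7550 genes. The smallest adjusted p among the subunits was 0.0838, for Itgb3, which averaged 7.59 with LPS and 7.01 with oxLDL, with a difference of 0.57 (95% interval 0.19 to 0.96). With cyclic loess the calls of all genes split 219 higher and 165 lower for LPS against oxLDL, in place of 167 and 216, and 469 and 441 for oxLDL against oxPAPC, in place of 589 and 345.

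Fresh ApoE -/- intima, compared with fresh wild-type intima, showed 0 of 6 subunits past the threshold, where 0.427% of 7264 genes passed, 0.138% as higher and 0.289% as lower, and 1328 had an unadjusted p under 0.05 (limma). Itgb5 read 7.95, 7.93, 7.51 and 7.98 in ApoE -/- arrays, against 7.14, 7.27 and 8.04 as lowest, median and highest in wild type. Wild-type replicate 12 was above all ApoE -/- arrays. The difference was 0.43 ± 0.18 (SE, log2; 95% interval 0.04 to 0.82; adjusted p = 0.24). The second Itgb5 probe set did not show it, with a difference of -0.03 (adjusted p = 0.959 by limma over 11097 probe sets). With the mean of all Itgb5 probe sets the difference was 0.20 (adjusted p = 0.618).

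Itga8 read 11.81, 11.81, 11.66 and 11.71 in ApoE -/- arrays, against 11.17, 11.33 and 11.83 in wild type, a difference of 0.33 (95% interval 0.01 to 0.64; adjusted p = 0.264 by limma). Wild-type replicate 12 lay above the ApoE -/- arrays and replicate 14 among them. Itgb3 read 6.64, 6.00, 6.35 and 6.69 in ApoE -/- arrays, against 5.40, 5.71 and 6.89 in wild type, a difference of 0.53 (95% interval -0.02 to 1.09; adjusted p = 0.291). Its groups overlapped only through wild-type replicate 14. Of 4 tested platelet and red cell markers 0 were higher and 1 lower, where 0.138% and 0.289% of all genes were. The 1 lower was the platelet gene Ppbp, at 3.55 in ApoE -/- and 6.48 in wild type (adjusted p = 0.0427 by limma). Ppbp averaged below the 40th percentile in ApoE -/-. Whether platelets had a part in this Itgb3 difference was not tested.

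The other 3 subunits differed less between the fresh groups. The 95% intervals were -0.14 to 0.31 for Itgb1, -0.50 to 0.28 for Itgav and -0.44 to 0.86 for Itga6. Smooth muscle markers averaged 9.13 ± 0.07 in ApoE -/- arrays (SD, n = 4) and 8.67 ± 0.32 in wild type (SD, n = 6), with 0 of 14 markers called. With their mean as a covariate the differences of Itga8 and Itgb5 were -0.03 and -0.02. Only wild-type replicate 12 reached the ApoE -/- range of that mean, 9.04 to 9.21. Marker level and genotype can therefore hardly be told apart here. The covariate widened the standard errors 1.42-fold in the median over genes. The fresh wild-type arrays with the highest smooth muscle means, replicates 12 and 14 at 9.18 and 8.90, also had the highest Itga8 and Itgb5 and the lowest Itga6 signals. Whether smooth muscle content had a part in the subunit differences was not tested.

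Over the 6 groups, each subunit had its own order of means. Itgav ran oxLDL, medium, LPS, oxPAPC, fresh wild type and fresh ApoE -/- from high to low, and the only neighbours whose ranges did not overlap were oxPAPC and fresh wild type. Itgb3 ran LPS, oxPAPC, oxLDL, medium, fresh ApoE -/- and fresh wild type, with gaps below oxPAPC and below medium. Itga8 ran fresh ApoE -/-, oxPAPC, fresh wild type, LPS, oxLDL and medium, with a gap between LPS and oxLDL alone.

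Itgb5 had nearly the order of Itga8, with oxLDL and LPS exchanged, and no neighbours were separated. Itgb1 ran oxPAPC, LPS, fresh ApoE -/-, oxLDL, fresh wild type and medium, separated only at the 2 ends. Itga6 ran medium, fresh ApoE -/-, fresh wild type, oxPAPC, oxLDL and LPS, with overlap between all neighbours.

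Array by array, Itgb5 and Itga8 followed the smooth muscle markers most closely. Pearson's r with their mean over 22 arrays was 0.912 for Itgb5, 0.883 for Itga8, 0.468 for Itgb1, -0.272 for Itgb3, -0.421 for Itga6 and -0.649 for Itgav. After subtracting group means the values were 0.896 for Itgb5, 0.83 for Itga8, 0.197 for Itgb1, 0.361 for Itgb3, -0.759 for Itga6 and 0.405 for Itgav. With the mean of the 18 endothelial markers, r was 0.538 for Itga6, -0.216 for Itgb5 and -0.265 for Itga8. It was -0.572 for Itgav, -0.632 for Itgb1 and -0.687 for Itgb3. After subtracting group means, in the same order, these were 0.515, -0.543, -0.707, -0.347, -0.167 and -0.0385. All these values describe arrays that fall into groups and share their normalization, so no test was made of them.

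**Figure D3:**
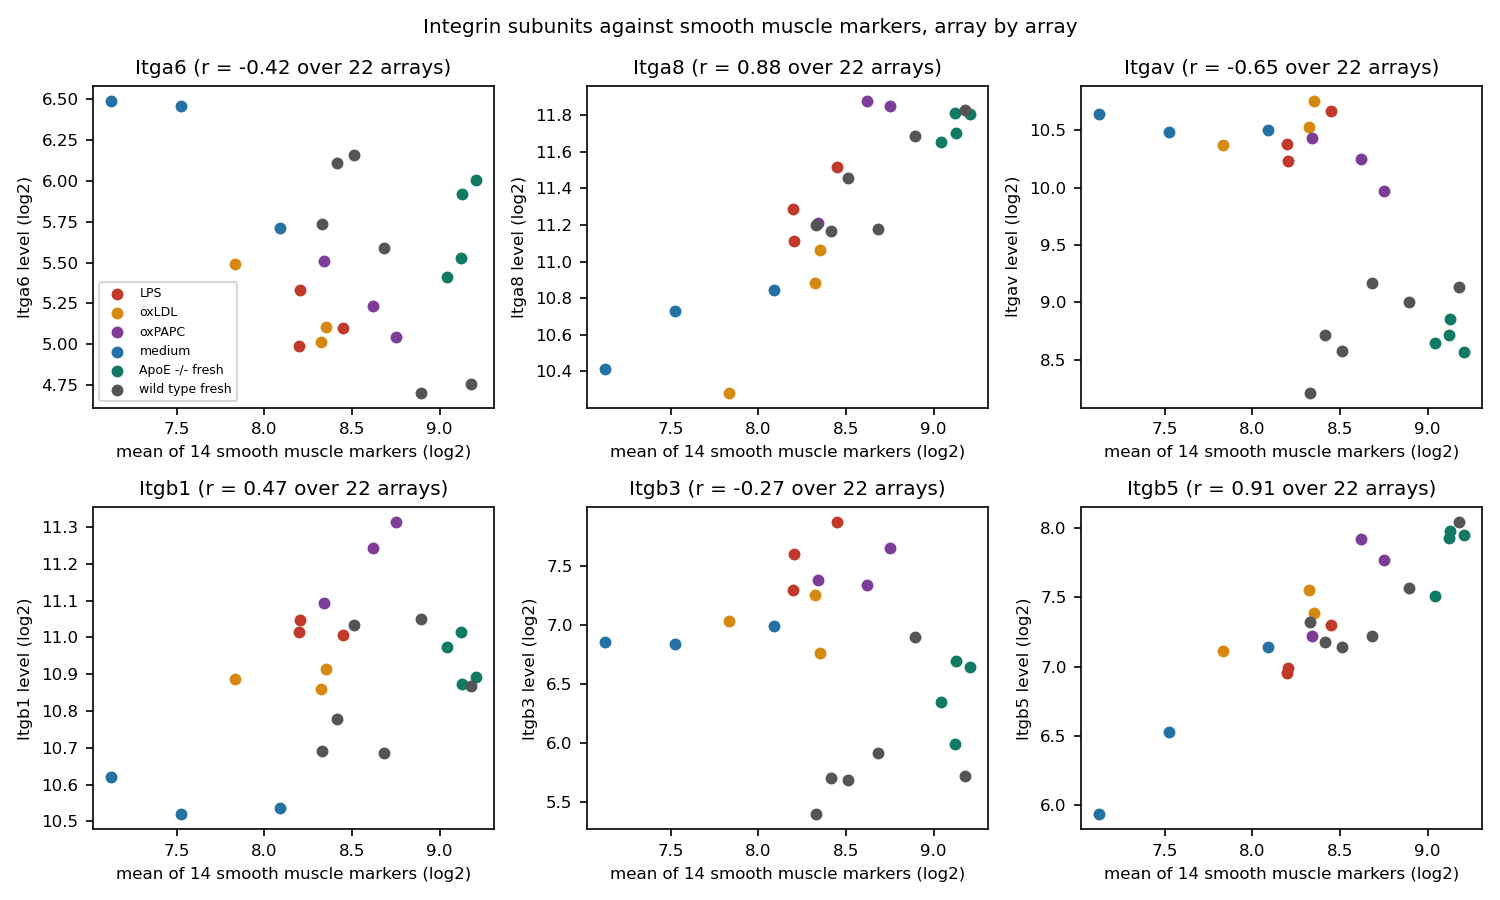
Log2 signal of each subunit (vertical axes) against the mean of 14 smooth muscle markers (horizontal axes, log2), 1 point per array, coloured by group, with Pearson's r over all arrays. Itgb5 and Itga8 climb with the markers (r = 0.91 and 0.88), and the medium arrays hold the 2 lowest marker means.

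Among pairs of subunits, Itga8 and Itgb5 had the highest r, 0.797 over 22 arrays and 0.782 within groups. Itgav and Itgb3, which encode partners, had r = 0.777 over all arrays and 0.32 within groups. Itgav and Itgb5, also partners, had r = -0.45 and 0.182, and Itga8 with its partner Itgb1 had 0.617 and 0.458.

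Genes with the most similar profile over the 22 arrays, out of 7940 compared, were taken as the 3 with the highest r. For Itgb5 they were Mylk (r = 0.954), which encodes myosin light chain kinase and is itself among the smooth muscle markers, Flna (0.936), which encodes the actin crosslinker filamin A that binds integrin tails, and Loxl1 (0.924), a matrix crosslinking enzyme. For Itga8 they were Oxct1 (0.944), Tpm1 (0.937), a tropomyosin, and Sh3bgrl (0.934). For Itgav they were Errfi1 (0.976), an inhibitor of the EGF receptor, Nop58 (0.972), a nucleolar protein, and Noct (0.971).

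The remaining subunits had less similar neighbours. Itgb3 was most like Rnf19b (0.905), Map2k3 (0.891), a kinase of the p38 pathway, and Ino80 (0.886). Itgb1 was most like Calm2 (0.868), a calmodulin gene, Serinc1 (0.857) and Dnaja4 (0.831). Itga6 was most like Fxyd3 (0.726), Lgi4 (0.710) and Ctdnep1 (0.693).

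Where a subunit had more than 1 probe set, these sometimes differed. All 3 Itgav probe sets were higher in medium than in fresh wild type. For Itgb1, 1452545_a_at, 1426918_at and 1427771_x_at were higher with oxPAPC by 0.66, 0.48 and 0.69 log2 (adjusted p = 0.00453, 0.0238 and 0.0101 in a fit over 11532 probe sets). The 2 other Itgb1 probe sets, 1426919_at and 1426920_x_at, had lower signals and differed by 0.22 and 0.39 (adjusted p = 0.575 and 0.348). With LPS only 1452545_a_at passed (0.46, adjusted p = 0.0361). There 1426918_at and 1427771_x_at differed by 0.33 and 0.28 (adjusted p = 0.128 and 0.266), 1426919_at and 1426920_x_at by -0.29 and -0.23 (adjusted p = 0.487 and 0.643), and the mean of all 5 by 0.11 (adjusted p = 0.702). In medium against fresh wild type 1426919_at was higher by 0.88 ± 0.25 (SE, log2; adjusted p = 0.0116), opposite in sign to the -0.29 of the probe set used.

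**Figure D4:**
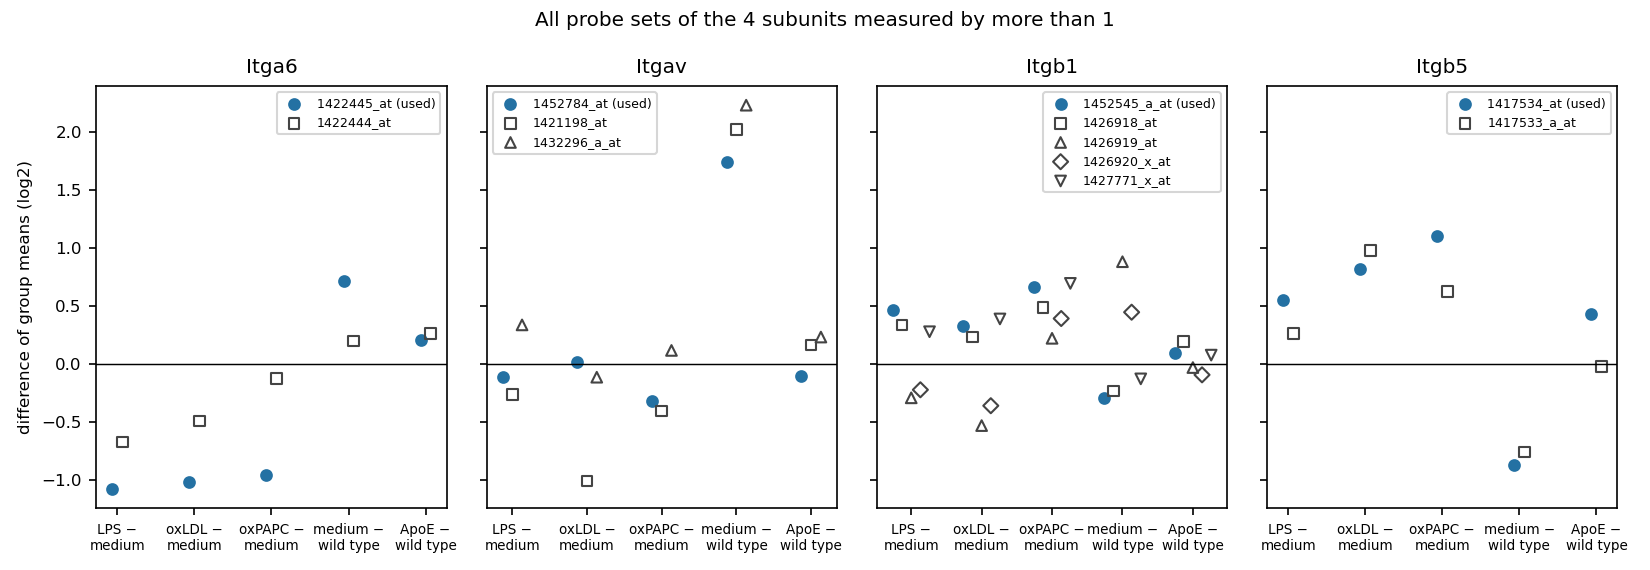
Differences of group means (vertical axis, log2) for every probe set of the 4 subunits that had more than 1, in 5 comparisons; filled points are the probe set used. The Itgav probe sets lie at 1.74, 2.02 and 2.23 for medium minus fresh wild type, and those of Itgb1 lie on both sides of 0 there.

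Of 18 other integrin subunits 14 were named on the array, and Itga7, Itgae, Itgal, Itgam and Itgb6 passed the level filter in no fit. In medium against fresh wild type 3 of 8 tested were higher and 2 lower, where 24.3% and 34.4% of all genes were. The median difference of the 8 was -0.12 against -0.13 for all genes. The leukocyte subunits Itgax and Itgb2, which pair with each other, were higher by 2.24 ± 0.14 and 1.61 ± 0.17 (SE, log2; adjusted p = 9.33e-07 and 2.05e-05). Itgax averaged 6.55 in medium and 4.31 in fresh wild type. It lay above the 40th percentile on 3 medium arrays and 0 fresh wild-type arrays. It thus entered the fit only through the medium arrays, and its call is set against a fresh level at background. The size of its rise rests on those low values. Itga9 was lower by 0.91 ± 0.17 (adjusted p = 0.000899).

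With stimuli, Itga2, which encodes a collagen-binding subunit, averaged 5.24 with LPS, 4.60 with oxLDL and 4.38 with oxPAPC, against 3.63 in medium. It lay above the 40th percentile on 3 LPS arrays, 1 oxLDL array, 0 oxPAPC arrays and 0 medium arrays, so it entered the fit mainly through the LPS arrays, and its calls as higher with each stimulus are set against a medium level at background. Itgb2 fell by 1.38 ± 0.20 and Itgax by 1.11 ± 0.27 with LPS (adjusted p = 0.00336 and 0.0293), and Itga3, a laminin-binding subunit, fell by 1.08 ± 0.14 with oxPAPC (adjusted p = 0.00109). These falls were not particular to 1 stimulus. Itgax was also lower with oxPAPC, by 0.98 ± 0.27 (adjusted p = 0.0259). Itga3 averaged 7.34 with LPS, 8.01 with oxLDL and 7.33 with oxPAPC, against 8.40 in medium. Itgb2 averaged 6.13, 6.82 and 6.83 with LPS, oxLDL and oxPAPC, against 7.51 in medium. With LPS, oxLDL and oxPAPC, 5.68%, 2.07% and 12.9% of all genes were lower than in medium. Macrophage and leukocyte markers were lower for 4 of 12, 1 and 7, and 0 were higher. Their mean was 5.24 to 5.93 over the LPS arrays, 5.35 to 5.75 with oxLDL and 5.38 to 5.42 with oxPAPC, against 5.98 to 6.15 in medium, and their part in these differences was not tested. Of 9 other subunits tested, 1 was higher and 3 lower with LPS and with oxPAPC, and 1 higher and 0 lower with oxLDL. Of all genes 3.36%, 8.34% and 0.742% were higher with LPS, oxPAPC and oxLDL. The medians were -0.26, -0.30 and -0.16 for LPS, oxPAPC and oxLDL, against -0.03, -0.05 and 0.01 for all genes.

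Between stimuli, Itga2 was also called higher with LPS than with oxPAPC, with the same limit. Itga3 was lower with LPS than with oxLDL by 0.66 (adjusted p = 0.0229) and higher with oxLDL than with oxPAPC by 0.68 (adjusted p = 0.0115). None of 7 tested passed in ApoE -/- against wild type, where 0.427% of all genes did. Itga2b had the smallest p of the 7 (difference -0.20, adjusted p = 0.403).

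**Figure D5:**
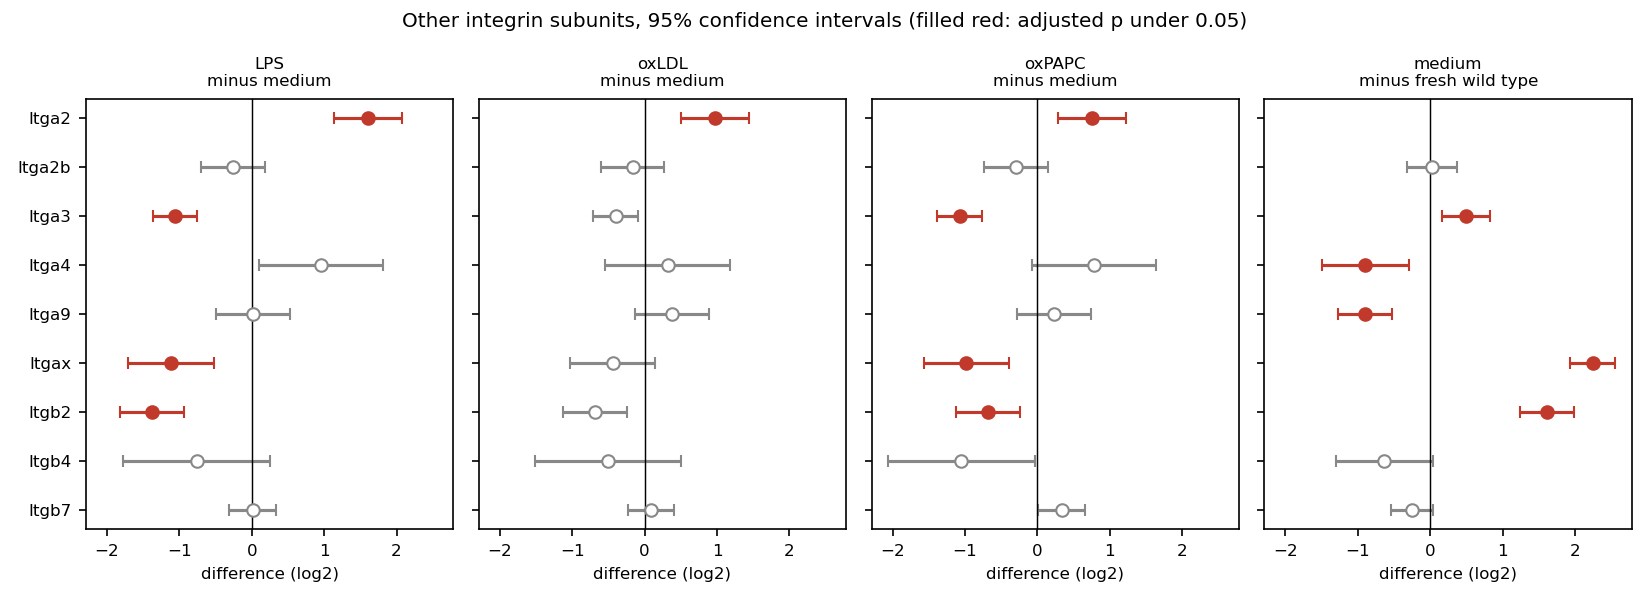
Differences of 9 other integrin subunits (horizontal axis, log2) with 95% confidence intervals in 4 comparisons; filled red points passed an adjusted p of 0.05, and a subunit below the level filter of a fit has no point. Itga2 is above 0 with each stimulus although its medium and oxPAPC signals are all under the 40th percentile, and Itgax and Itgb2 are above 0 in medium minus fresh wild type and below 0 with LPS and oxPAPC.

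Genes for integrin ligands were mostly lower after incubation. Of 23 tested, 17 were lower and 1, Tgfb1, was higher in medium than in fresh wild type. Of all genes 34.4% were lower and 24.3% higher. The median of the ligands was -0.79 against -0.13 for all genes. Col4a5, Col1a1 and Col3a1, which encode collagen chains, fell by 3.12 ± 0.24, 3.07 ± 0.32 and 2.61 ± 0.23 (SE, log2; adjusted p = 2.98e-06, 2.09e-05 and 6.76e-06). Smooth muscle and fibroblast markers were lower in the same comparison, the fibroblast ones for 4 of 7 tested with 2 higher.

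Among the ligands, Lamb1, which encodes a laminin chain, fell by 1.71 ± 0.38 with LPS, 2.12 ± 0.38 with oxLDL and 2.73 ± 0.38 with oxPAPC (SE, log2; adjusted p = 0.0208, 0.0179 and 0.00134), and Hspg2, which encodes perlecan, fell by 1.50 with LPS and 1.71 with oxLDL (adjusted p = 0.0112 and 0.0149). Postn and Col4a5 were higher with oxPAPC by 1.64 ± 0.35 and 1.58 ± 0.39 (adjusted p = 0.00959 and 0.0175), and Nid1 fell by 0.70 with LPS (adjusted p = 0.0101). Of 23 tested 1 was higher and 4 lower with LPS, where 3.36% and 5.68% of all genes were. With oxLDL 0 and 2 were, against 0.742% and 2.07%, and with oxPAPC 6 and 4, against 8.34% and 12.9%. The medians were 0.09, 0.14 and 0.25 for LPS, oxLDL and oxPAPC, against -0.03, 0.01 and -0.05 for all genes.

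Between stimuli the ligand Vwf, an endothelial glycoprotein, was higher with oxLDL than with oxPAPC by 1.14 (adjusted p = 0.00271) and lower with LPS than with oxLDL by 0.70 (adjusted p = 0.0329). In ApoE -/- against wild type 1 of 23 ligands passed, where 0.427% of all genes did. This was Lamc1, which encodes a laminin chain, at 10.31 in ApoE -/- arrays and 9.57 in wild-type arrays, a difference of 0.74 ± 0.10 (SE, log2; adjusted p = 0.0259). Calls in this comparison depended on single arrays, only 1 gene being called without ApoE -/- replicate 3.

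Of 24 tested integrin adaptors and partners, 13 were lower and 3 higher in medium than in fresh wild type. Of all genes 34.4% were lower and 24.3% higher. The median of the list was -0.58 against -0.13 for all genes. Zyx, which encodes the focal adhesion protein zyxin, and Ilk, which encodes integrin-linked kinase, fell by 2.21 ± 0.15 and 1.66 ± 0.14, and Parvb, which encodes beta-parvin, was higher by 1.36 ± 0.20 (SE, log2; adjusted p = 1.69e-06, 4.91e-06 and 0.000193). In ApoE -/- against wild type a single adaptor was called, where 0.427% of all genes were. This was Tln1, which encodes talin, the protein that activates integrins from inside the cell. It was at 8.97 against 8.38, a difference of 0.59 ± 0.11 (adjusted p = 0.0474). Without ApoE -/- replicate 3 only 1 gene was called in this comparison, so Tln1 and Lamc1 cannot both have held there.

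With stimuli, Sharpin, an inhibitor of integrin activation, fell by 0.86, 1.26 and 1.45 with LPS, oxLDL and oxPAPC (log2; adjusted p = 0.0178, 0.00793 and 0.000977). Ptk2b, a kinase related to focal adhesion kinase, fell by 1.23 with LPS and 1.68 with oxPAPC (adjusted p = 0.00654 and 0.000886), and Cd151, a tetraspanin that binds laminin receptors, fell by 1.05 with LPS (adjusted p = 0.00806). Flna was higher by 0.99 with oxLDL and 1.21 with oxPAPC (adjusted p = 0.0452 and 0.0058), and Ilk by 0.96 with oxLDL (adjusted p = 0.0203). Of 25 tested, 4 were higher and 3 lower with LPS, where 3.36% and 5.68% of all genes were. With oxLDL 2 and 2 were, against 0.742% and 2.07%, and with oxPAPC 6 and 3, against 8.34% and 12.9%. The medians were 0.13, 0.09 and 0.23, against -0.03, 0.01 and -0.05 for all genes.

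Between stimuli, Ptk2b was higher with oxLDL than with oxPAPC by 1.28 (adjusted p = 0.00404) and lower with LPS than with oxLDL by 0.84 (adjusted p = 0.0391). Rsu1 and Parva, which act in the complex of integrin-linked kinase, were lower with oxLDL than with oxPAPC by 1.10 and 0.94 (log2; adjusted p = 0.0327 and 0.0144).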

How the data were processed

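Transcript levels were measured on 22 arrays. Per the submitters' processing notes, the authors' deposited log2 signals came from the RMA method of affy. Versions, genome build and whether all arrays were normalized together are not given in the sources used here. RMA subtracts background, quantile normalizes and summarises probes, so a shift of most transcripts 1 way would not show. Raw intensities and detection calls were not used.

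Of 22626 probe sets, 18003 carried 1 gene symbol, 287 several and 4336 none. Symbols were updated through RefSeq GRCm38.p6 gene identifiers, which 17977 matched. Each of 11807 genes was represented by the probe set of highest average signal. A gene was tested if above the 40th percentile of its array on a number of arrays no smaller than the smaller group of the comparison. limma 3.58.1 (lmFit, eBayes; R 4.3.3) gave two-sided p-values, adjusted by Benjamini-Hochberg over all genes tested, and a gene was called under 0.05. The 10 fresh arrays, the 9 arrays of medium and fresh wild type and the 12 incubated arrays were fitted separately. The small number of arrays limits precision.

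Genes named were the 8 members, up to 3 called members of each list by size of change, or else the one with the smallest p, and the 3 genes most correlated with each member. Single genes whose values show a disagreement, such as Tgfb1, were named after their values were seen. Members and lists were chosen with earlier results of these data known. The medium, LPS, oxLDL and oxPAPC groups came from separate arrays with no pairing.

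Fits were tested on simulated data with independent noise, in which 67, 67 and 66 genes were changed by 0.5, 1 and 2 log2. For LPS against medium (7550 genes), 10.4%, 70.1% and 97% of genes changed by 0.5, 1 and 2 log2 were recovered, with 12 false among 130 calls. For ApoE -/- against wild type (7264 genes) the shares were 37.3%, 74.6% and 98.5%, and for medium against fresh wild type (7508 genes) 26.9%, 79.1% and 92.4%. In the real data 58.7% of genes were called in the last comparison, far more than were changed here, so its shares need not hold there. Alternatives were median centring, cyclic loess, no level filter, the mean of a gene's probe sets, all arrays in 1 fit, smooth muscle markers as a covariate and leaving out each array.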

Additional observations from a re-analysis of the deposited data

Results flagged for a closer look

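Among the 12 subunit-and-group sets with 4 or 6 arrays, 2 held an array far from the others. Chance alone flags about 1 in 20 such sets. Itgb5 in fresh ApoE -/- intima read 7.51 on replicate 5, while the nearest of the other 3 arrays was at 7.93. Itgb3 in fresh wild-type intima read 6.89 on replicate 14, while the nearest of the other 5 arrays was at 5.92. Without wild-type replicate 14 the difference of Itgb3 between medium and fresh wild type was 1.21 (adjusted p = 5.93e-05 by limma), and that between ApoE -/- and wild type was 0.74 (adjusted p = 0.0674). Without ApoE -/- replicate 5 the difference of Itgb5 between ApoE -/- and wild type was 0.54 (adjusted p = 0.213).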

How the results depend on the processing

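Of the subunit differences recomputed under the 6 alternatives to normalization, filter, probe set, fit and covariate, 248 kept their direction and side of the threshold, 17 kept the direction but were no longer called, 6 became called and 17 turned direction. In the fits that left out 1 array these numbers were 280, 37, 3 and 10. No paired analysis was possible because no 2 groups compared share more than 1 replicate number (LPS and medium share 10, oxPAPC and medium share 11). Arrays carry no read depth, and differences of about 0.5 log2 were recovered least often in the simulated data.

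With smooth muscle markers as a covariate the genes called numbered 1 for ApoE -/- against wild type, 2002 for medium against fresh wild type, 135 for LPS, 47 for oxLDL and 0 for oxPAPC against medium, 357 for LPS against oxPAPC and 356 for oxLDL against oxPAPC. The subunits called were then 2 for medium against fresh wild type, and 0 for LPS, oxLDL and oxPAPC against medium and for oxLDL against oxPAPC. Differences that turned direction under this covariate were -0.72 for Itga6 and 0.30 for Itgb5 in medium against fresh wild type, -0.030 for Itga8 and -0.020 for Itgb5 in ApoE -/- against wild type, -0.41 for Itga8 and -0.011 for Itgb3 with oxLDL, -0.26 for Itgb5 with LPS, -0.044 for Itgb5 with oxPAPC, 0.031 for Itga6 in LPS against oxLDL and 0.18 for Itgb5 in oxLDL against oxPAPC. The covariate widened the standard errors by a median of 1.03-fold to 1.88-fold over the 8 comparisons, and the cause of each change of direction was not tested.

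With the mean of all probe sets of a gene, Itgav turned to 0.094 in ApoE -/- against wild type, 0.36 in LPS against oxLDL, -0.37 in oxLDL against medium and -0.17 in oxLDL against oxPAPC. Itgb1 turned to 0.13 in medium against fresh wild type and Itgb5 to 0.032 in oxLDL against oxPAPC. The subunits called were 1 with LPS and 0 with oxLDL. Cyclic loess turned Itgav with oxLDL to -0.011. With all 22 arrays in 1 fit the genes called were 94 for ApoE -/- against wild type, 1098 for LPS, 554 for oxLDL and 662 for LPS against oxLDL, and the subunits called were 0 with oxLDL and 2 for oxLDL against oxPAPC. Without the level filter they were 6 genes for ApoE -/- against wild type and 2 subunits for oxLDL against oxPAPC.

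Leaving out each array in turn gave 1 to 68 called genes for ApoE -/- against wild type, 3724 to 4381 for medium against fresh wild type, 236 to 374 for LPS, 23 to 269 for oxLDL and 735 to 1999 for oxPAPC against medium, 133 to 266 for LPS against oxLDL, 244 to 1206 for LPS against oxPAPC and 348 to 1370 for oxLDL against oxPAPC. For ApoE -/- against wild type the count was 1 to 4 without any one ApoE -/- array or without wild-type replicate 7, 8 or 13, and 68 without wild-type replicate 12. Each of the 6 omissions for LPS lowered its count by over 1.5 times, as did those for oxLDL other than oxLDL replicate 14 and those for oxPAPC other than oxPAPC replicate 13, in fits with fewer arrays. Subunits called ranged from 3 to 5 for medium against fresh wild type, from 0 to 1 for LPS and for oxLDL, from 1 to 5 for oxPAPC and from 0 to 2 for oxLDL against oxPAPC, and stayed at 0 in the other 3 comparisons. The highest counts for oxPAPC, 1999 genes, came without oxPAPC replicate 13, and the lowest for LPS, 236, and oxLDL, 23, without medium replicate 9. Differences near 0 turned direction, ranging from -0.083 to 0.31 for Itga8 and from -0.092 to 0.10 for Itgav with oxLDL, from -0.16 to 0.080 for Itga6 in LPS against oxLDL, from -0.21 to 0.063 for Itga6 in oxLDL against oxPAPC and from -0.0083 to 0.28 for Itgb3 in LPS against oxPAPC.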
